A study of Mus musculus with 45 samples.

Results

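The genes described here encode cytokines of the IL-6, IL-12, IL-10 and IL-15 families and receptors for them, 10 genes in all: the ligand genes *Il6*, *Osm*, *Il27*, *Ebi3*, *Il12a*, *Il12b*, *Il10* and *Il15*, and the receptor genes *Il6ra* and *Il10ra*. They were chosen by name, and all of them were listed in the 3 deposited tables, which hold 55450 genes for slice microglia, 47643 for adult microglia and 43411 for brain tissue. Slice microglia came from C57BL/6 mice: coronal brain slices of neonatal pups were cultured for 2 weeks and then kept for 24 h in medium (9 samples), with 50 ng/mL tumor necrosis factor (TNF, 11 samples) or with GM-CSF, granulocyte-macrophage colony-stimulating factor, at 20 ng/mL (9 samples). The slices of a sample were pooled, 3 per the labels, and CD11b high, CD45 intermediate cells were sorted, so that the cytokines reached the microglia within tissue that also held neurons, astrocytes and oligodendrocytes. Adult microglia were sorted by the same gate from perfused female C57BL/6 mice of 10 to 15 weeks, 24 h after 1 mg/kg lipopolysaccharide (LPS, a bacterial cell wall component, 4 samples) or phosphate-buffered saline (PBS, 4 samples). Whole brain tissue of C57BL/6 mice of the same age range gave 4 samples 24 h after LPS at this dose and 4 samples with no treatment, so the brain tissue control was not injected. The titles of all in vivo samples carry the label WT. Per the study's methods the in vivo samples came from separate mice, and the slice samples were gathered over several independent experiments. The labels do not say which slice samples share an experiment or a litter, so for slices p-values measure the spread between samples, which may in part be technical.

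Cytokines of the IL-6 family (IL-6, oncostatin M, leukemia inhibitory factor and others) signal through the shared receptor chain gp130, encoded by *Il6st*, and activate Janus kinases and the transcription factor STAT3. The IL-12 family is built from paired chains that are shared between cytokines. Among them, IL-12 is p35 (*Il12a*) with p40 (*Il12b*), IL-23 is p40 with p19 (*Il23a*), and IL-27 is p28 (*Il27*) with EBI3 (*Ebi3*). Each of these named pairs needs both of its genes. IL-10 is an anti-inflammatory cytokine that acts through *Il10ra* and *Il10rb*, and IL-15 is presented by *Il15ra* to cells with the common gamma chain *Il2rg*. Microglia, the resident macrophages of the brain, are known both to make such cytokines after inflammatory stimuli and to respond to them.

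To place the genes whose transcripts are described below, the 250 bases upstream of the RefSeq transcription start are given for *Il6* (chr5:30012864-30013113, plus strand), *Il12b* (chr11:44399813-44400062, plus strand), *Ebi3* (chr17:55952373-55952622, plus strand) and *Il6ra* (chr3:89913197-89913446, minus strand). They are shown because *Il6* and *Il12b* had the largest folds among the genes called, *Ebi3* was the ligand gene with the highest level per exon length in medium, and *Il6ra* was called in 3 of 4 treatments. Sequences are RefSeq's on GRCm38.p6, read 5′ to 3′ on the strand of the gene, with matches to the motifs searched in capitals.
Il6: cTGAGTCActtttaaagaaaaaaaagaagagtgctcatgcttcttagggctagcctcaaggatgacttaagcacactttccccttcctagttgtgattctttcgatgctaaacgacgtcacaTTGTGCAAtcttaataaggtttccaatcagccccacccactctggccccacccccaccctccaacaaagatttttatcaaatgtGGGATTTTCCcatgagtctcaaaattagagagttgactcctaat
Il12b: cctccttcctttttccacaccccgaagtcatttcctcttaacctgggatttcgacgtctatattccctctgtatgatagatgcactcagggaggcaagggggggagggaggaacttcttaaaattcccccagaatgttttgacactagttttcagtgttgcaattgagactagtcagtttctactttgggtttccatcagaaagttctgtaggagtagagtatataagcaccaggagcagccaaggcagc
Ebi3: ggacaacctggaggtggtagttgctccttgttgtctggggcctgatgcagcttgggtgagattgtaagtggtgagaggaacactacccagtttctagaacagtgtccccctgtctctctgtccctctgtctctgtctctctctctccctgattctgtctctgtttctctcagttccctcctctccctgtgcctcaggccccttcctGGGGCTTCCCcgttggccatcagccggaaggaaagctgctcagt
Il6ra: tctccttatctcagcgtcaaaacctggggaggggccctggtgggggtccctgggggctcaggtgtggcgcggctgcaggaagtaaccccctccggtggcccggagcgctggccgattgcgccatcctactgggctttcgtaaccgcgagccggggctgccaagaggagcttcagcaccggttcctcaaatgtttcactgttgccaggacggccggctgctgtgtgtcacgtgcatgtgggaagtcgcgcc
The motifs searched on both strands were the TATA-box motif TATAAA, the STAT motif TTCNNNGAA, the AP-1 motif TGANTCA, the C/EBP motif TTGCNNAA, the interferon-stimulated response element core and the NF-kB consensus, and no match overlapped another. The *Il6* window held TGANTCA, which reads alike on both strands, 249 to 243 bases upstream, a match to TTGCNNAA on the minus strand 128 to 121 bases upstream and the NF-kB consensus 44 to 35 bases upstream. The *Ebi3* window held the NF-kB consensus 44 to 35 bases upstream, counted from a RefSeq start 17 bases from the nearest GENCODE start, and the *Il12b* and *Il6ra* windows held none of these letters. Over 32851 RefSeq promoter windows of this length, 3.9% held the NF-kB consensus, 6.75% TGANTCA, 9.56% TTGCNNAA, 12.4% TATAAA, 7.02% TTCNNNGAA and 2.98% the interferon-stimulated response element core. A match describes the letters and no binding was measured.

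Levels are given as CPM (the count relative to the scaled library size) within each table, and levels of different genes are compared as CPM per kilobase of exon. The total count per library was 5973364 to 9165485 in the slice table, 11391564 to 14216005 in the table of adult microglia, and 8199863 to 10368578 for brain tissue. Of the marker lists, all 10 microglial markers were detected in each group, with summed levels of 21878 to 31278 CPM in medium, 10403 to 13358 CPM with TNF, 15675 to 18051 CPM with GM-CSF, 61689 to 68771 CPM in PBS microglia and 40332 to 48431 CPM in LPS microglia. The 6 T and NK cell markers summed to at most 1.4 CPM in any sorted library. The 6 markers of border macrophages, which the sort gate can also hold, summed to 290 to 862 CPM across slice libraries and to 10.1 to 44.5 CPM across adult microglia, and the 5 astrocyte markers to 24.4 to 117 CPM and 145 to 280 CPM. In slice libraries 1 gene, *F13a1*, weighed heavily in the border macrophage sum, with means of 303 CPM in medium, 346 with TNF and 324 with GM-CSF. The astrocyte sum in adult microglia was mostly *Slc1a3* (271 CPM with PBS, 162 CPM with LPS). The 7 neutrophil markers summed to between 0.134 and 14 CPM in medium, 2.11 and 113 CPM with TNF and 1.08 and 42.8 CPM with GM-CSF, with *Ly6g* at 0 in every slice library. Further marker values follow beside results of the comparisons.

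Among the genes per kilobase of exon, *Il10ra* had the highest mean level in each of the 7 groups, from 1.57 ± 0.136 CPM per kb (SD, n = 4) in untreated brain tissue to 281 ± 19.5 (n = 4) in PBS microglia. In medium it was followed by *Ebi3* (36.2 ± 7.04 CPM per kb, SD, n = 9), *Osm* (15.9 ± 4.11), *Il6ra* (9.31 ± 1.84) and *Il15* (7.2 ± 1.28), the last pair lying within their spread of each other. *Il6* (0.586 ± 0.447 CPM per kb) and *Il27* (0.418 ± 0.491) were lower and also within their spread of each other. Of the chains of IL-27, the EBI3 transcript was thus counted in medium, with hardly any transcript of the p28 chain. In PBS microglia the order after *Il10ra* was *Il6ra* (38.8 ± 1.57 CPM per kb, n = 4), *Ebi3* (35.0 ± 1.73) and *Il15* (12.5 ± 0.892), and *Il6* stood at 4.39 ± 1.05. In brain tissue no mean was above the 1.69 CPM per kb of *Il10ra* with LPS. Tables were normalized separately and were not compared by a test.

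**Figure D1:**
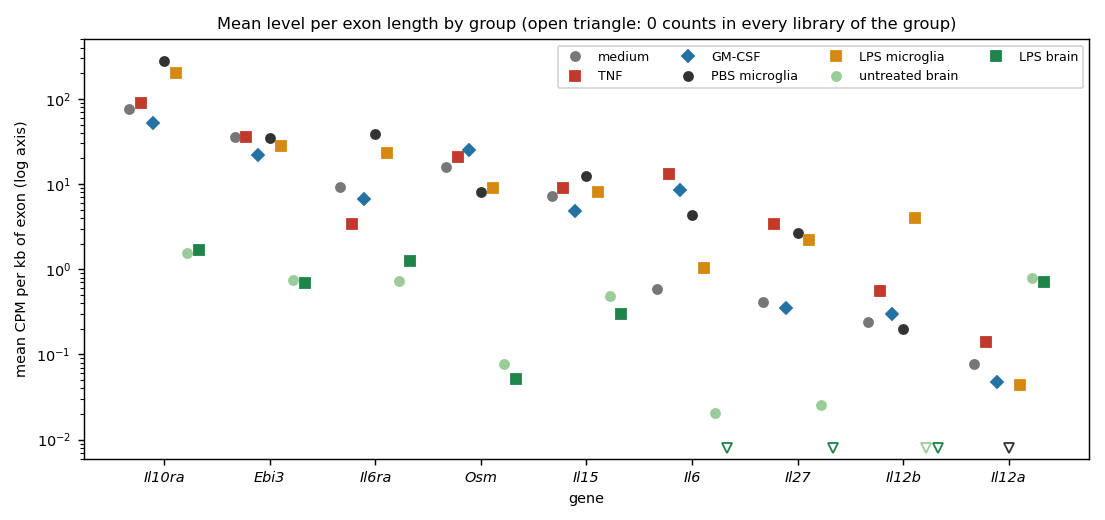
Mean CPM per kilobase of exon (log axis) of 9 of the genes in each of the 7 groups, with open triangles where every library of the group had 0 counts. *Il10ra* stood highest in each group, *Il6* spanned from 0 in LPS brain tissue to 13.1 CPM per kb with TNF, and *Il12b* reached 4.04 CPM per kb in LPS microglia, its highest mean of the 7 groups.

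*Il10*, the gene of the anti-inflammatory cytokine, was close to absent. It had 3 counts in 1 TNF library and 0 counts in the other 44 libraries. A count of 0 leaves room for up to 3 counts in a library, which corresponds to 0.327 to 0.502 CPM in slice libraries, 0.211 to 0.263 CPM in adult microglia and 0.289 to 0.366 CPM in brain tissue. No fold change is given. These limits cover counting error only, since the libraries carry no molecular identifiers.

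The first comparison set slice microglia with TNF against those in medium alone. *Il6* and *Il27* rose and *Il6ra*, the ligand-binding chain of the IL-6 receptor, fell, while *Osm*, *Ebi3*, *Il15* and *Il10ra* did not pass the thresholds of an adjusted p under 0.05 and a fold change over 1.5. Of the 10 genes 7 passed the filter on low counts, of which 2 were called higher and 1 lower. Over all 11313 genes tested, 9.10% were called higher and 11.7% lower. *Il6* and *Il27* passed the filter through treated libraries, which favors genes higher with treatment, so the count by itself says little about the group.

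*Il6* had 0 to 25 counts in the medium libraries, with a lowest, median and highest level of 0, 1.11 and 3.35 CPM. With TNF these values were 21.3, 30 and 47.1 CPM, from 119 to 334 counts. All 11 TNF libraries lay above all 9 medium libraries. The mean was 31.8 ± 8.06 CPM (SD, n = 11) against 1.42 ± 1.09 CPM (n = 9), which is 21.9-fold (log2 fold change 4.45, SE 0.29, edgeR adjusted p = 8.54e-15). Within the title codes, which divide the slice samples into 1A, 1B, 2A and 2B, the log2 fold change was 4.08 with codes 1A and 1B alone and 4.89 with codes 2A and 2B alone (edgeR adjusted p = 1.54e-09 and 2.29e-07). In the same libraries 1 of 2 tested neutrophil markers and 1 of 4 oligodendrocyte markers were called higher. Lower calls covered 2 of 5 border macrophage, 1 of 5 astrocyte and 1 of 1 B cell markers tested. The part of these lists in the rises of *Il6* and *Il27* was not tested.

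*Il27*, which encodes the p28 chain of IL-27, was barely counted without TNF. Its lowest, median and highest levels were 0, 0.134 and 1.41 CPM in medium, where 3 of 9 libraries had 0 counts and the highest had 13. With TNF they were 1.08, 3.25 and 7.62 CPM, from 6 to 62 counts. Of the 11 TNF libraries 10 lay above every medium library, and the groups overlapped in 1 library. *Il27* was 7.68-fold higher (log2 fold change 2.94, SE 0.68, edgeR adjusted p = 0.000594). It was 2.93 with codes 1A and 1B alone (adjusted p = 0.00547), and with codes 2A and 2B alone *Il27* missed the filter on low counts, with code means of 3.14 and 1.6 CPM for TNF against 0.448 and 0.234 CPM for medium. The exons of *Il27* share 103 bases with *Apobr* on the opposite strand, and *Apobr* itself did not pass the test (14.7 ± 5.22 CPM with TNF, 11.7 ± 4.74 CPM in medium, log2 fold change 0.33, adjusted p = 0.279). Whether counting used strand is not given in the sources used here, so reads of this overlap cannot be assigned with certainty.

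*Ebi3*, the partner chain of p28 in IL-27, showed no such difference. Its lowest, median and highest levels were 29.2, 41.6 and 53.4 CPM in medium and 29.4, 41.2 and 48.5 CPM with TNF, with full overlap (log2 fold change -0.035, SE 0.135, adjusted p = 0.864). Per kilobase of exon, the mean of *Il27* with TNF was 3.36 ± 1.77 CPM per kb (SD, n = 11) and that of *Ebi3* 35.3 ± 4.65.

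*Il6ra* had a lowest, median and highest level of 63.2, 76.9 and 108 CPM in medium and of 18, 28.6 and 38.9 CPM with TNF. All 11 TNF libraries lay below all medium libraries. Its log2 fold change was -1.465 (SE 0.14, 2.76-fold lower, edgeR adjusted p = 1.04e-10), and -1.51 and -1.48 within codes 1A and 1B and codes 2A and 2B (adjusted p = 1.87e-06 and 1.03e-06). Ligand and receptor gene of IL-6 thus moved in opposite directions. In the same libraries 9 of 10 microglial markers were called lower with TNF, and the part of that change in the fall of *Il6ra* was not tested.

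The other ligand genes and *Il10ra* changed little with TNF. *Osm*, which encodes oncostatin M, had a lowest, median and highest level of 35.9, 43.7 and 62.3 CPM with TNF and 22.7, 33.6 and 47.5 CPM in medium (log2 fold change 0.375, SE 0.15, adjusted p = 0.0396), under the fold limit. *Il10ra* had 253, 322 and 389 CPM against 212, 263 and 329 CPM (log2 fold change 0.22, SE 0.085, adjusted p = 0.0363), also under the limit. *Il15* ranged from 14.7 to 28.7 CPM with TNF and from 12.1 to 21 CPM in medium (log2 fold change 0.30, SE 0.16, adjusted p = 0.133). The groups overlapped for each of these genes.

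*Il12b* and *Il12a*, the genes of the IL-12 chains, were sporadic in slice microglia and stayed under the filter. *Il12b* had counts in 6 of 11 TNF libraries (6, 30, 15, 9, 18 and 11 counts), in 5 of 9 GM-CSF libraries (21, 7, 7, 2 and 6 counts) and in 1 of 9 medium libraries, which alone had 36 counts. A fit of all genes without the filter gave *Il12b* a log2 fold change of 1.14 for TNF (SE 1.09, edgeR adjusted p = 0.495) and 0.29 for GM-CSF (SE 1.13, adjusted p = 0.97). *Il12a* had counts in 4 TNF libraries (2 to 7 counts), in 3 GM-CSF libraries (1 to 3 counts) and in 1 medium library (11 counts). Its unfiltered log2 fold changes were 0.70 (SE 1.13, adjusted p = 0.736) and -0.65 (SE 1.16, adjusted p = 0.811). At this depth no difference was detectable for either gene.

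**Figure D2:**
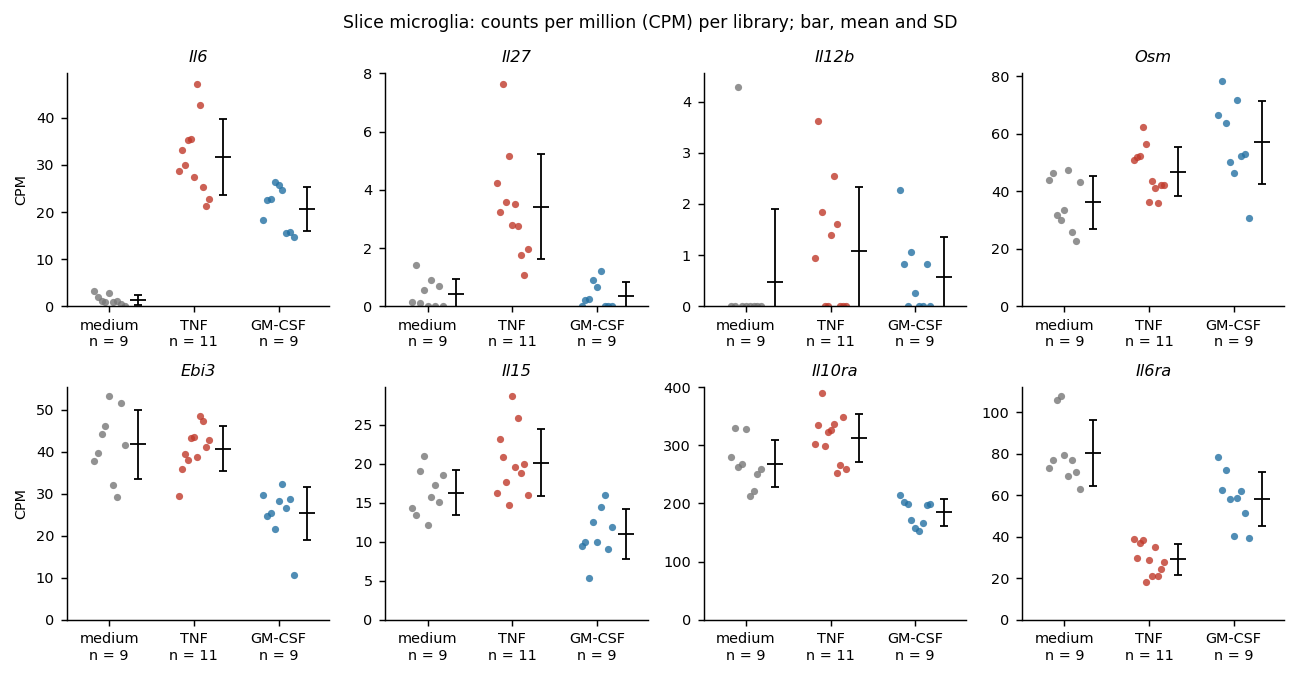
CPM of 8 of the genes in each slice microglia library (points) with the group mean and SD (bars), for medium, TNF and GM-CSF. All TNF and GM-CSF libraries stand above all medium libraries for *Il6*, all TNF libraries stand below all others for *Il6ra*, and *Il12b* is at 0 in 8 of 9 medium libraries. Axes start at 0, where SD bars of *Il12b* and *Il27* end.

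GM-CSF was compared with the same medium libraries. *Il6* and *Osm* rose and *Ebi3* fell, and *Il15*, *Il10ra* and *Il6ra* were lower at an adjusted p under 0.05 without reaching the fold limit. Of the 7 genes that passed the filter 2 were called higher and 1 lower, where 4.84% of the 11313 genes tested were called higher and 5.96% lower. *Il6* passed the filter through treated libraries, which favors genes higher with treatment, so nothing is read from this count. Both comparisons share the medium libraries and are not independent of each other.

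*Il6* had a lowest, median and highest level of 14.8, 22.5 and 26.4 CPM with GM-CSF, from 102 to 193 counts, against 0, 1.11 and 3.35 CPM in medium. No GM-CSF library overlapped with medium. The log2 fold change was 3.84 (SE 0.30, 14.3-fold, edgeR adjusted p = 2.97e-12), 3.57 within codes 1A and 1B and 4.18 within codes 2A and 2B (adjusted p = 1.12e-07 and 7.13e-06). In the same libraries 0 of 2 tested neutrophil, 0 of 5 border macrophage and 0 of 4 oligodendrocyte markers were called. Lower calls covered 1 of 5 astrocyte and 1 of 1 B cell markers tested. The part of these lists in the rise of *Il6* was not tested.

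*Osm* had a lowest, median and highest level of 30.8, 52.8 and 78.2 CPM with GM-CSF. In medium the values were 22.7, 33.6 and 47.5 CPM, and 7 of 9 GM-CSF libraries lay above all of them. The log2 fold change was 0.66 (SE 0.15, 1.58-fold, edgeR adjusted p = 0.00118). It was 0.765 within codes 1A and 1B (adjusted p = 0.00481), and within codes 2A and 2B it was 0.57 and did not pass (adjusted p = 0.0913).

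*Ebi3* had a lowest, median and highest level of 10.6, 26.5 and 32.4 CPM with GM-CSF against 29.2, 41.6 and 53.4 CPM in medium. Of the 9 GM-CSF libraries 7 lay below every medium library. Its log2 fold change was -0.72 (SE 0.14, 1.65-fold lower, edgeR adjusted p = 0.000202), with -0.72 within codes 1A and 1B (adjusted p = 0.00183) and -0.70 within codes 2A and 2B, where it did not pass (adjusted p = 0.0555). The library at 10.6 CPM stood apart from the next at 21.5 CPM, and without the 3 GM-CSF and 3 medium libraries of its title code, 2B, the log2 fold change was -0.64 (adjusted p = 0.00109). *Ebi3* shares 270 exon bases with the antisense gene *Gm16712*, which had 0.737 ± 0.656 CPM with GM-CSF and 0.612 ± 0.829 CPM in medium.

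*Il15* stood at the fold limit. It had a lowest, median and highest level of 5.28, 10 and 16 CPM with GM-CSF and 12.1, 15.7 and 21 CPM in medium, with 6 of 9 GM-CSF libraries below all medium libraries (log2 fold change -0.57, SE 0.17, 1.49-fold lower, adjusted p = 0.0102). Within codes 1A and 1B it was -0.865 and called (adjusted p = 0.0283), and within codes 2A and 2B -0.345 and not called (adjusted p = 0.38). *Il10ra* was 1.45-fold lower (152, 197 and 214 CPM against 212, 263 and 329 CPM, log2 fold change -0.54, SE 0.09, adjusted p = 1.57e-05), and 8 of 9 libraries lay below medium. Leaving out title code 2B moved it to -0.61, past the limit (adjusted p = 0.000158). *Il6ra* was 1.38-fold lower, at 39.6, 58.6 and 78.3 CPM (log2 fold change -0.47, SE 0.15, adjusted p = 0.0152). Its log2 fold change was -0.42 within codes 1A and 1B and -0.50 within codes 2A and 2B (edgeR adjusted p = 0.153 and 0.0489). The adjusted p was also over 0.05 with scaling by total counts (0.0606), without title code 2A (0.0544) and without title code 2B (0.0619). *Il27* had counts in 5 of 9 GM-CSF libraries, at most 9, and did not differ detectably (log2 fold change -0.27, SE 0.74, adjusted p = 0.839). With GM-CSF 7 of 10 microglial markers were called lower, and their part in the lower levels of *Ebi3*, *Il10ra*, *Il15* and *Il6ra* was not tested.

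TNF and GM-CSF libraries were then compared directly. Of the 7 genes tested 5 were called higher with TNF and 1 lower, where 8.25% of all genes were called higher and 7.96% lower. *Il27* passed the filter through the TNF libraries, which favors a gene higher with TNF, so nothing is read from this count either. *Il10ra* was 1.69-fold higher with TNF (log2 fold change 0.76, SE 0.09, edgeR adjusted p = 6e-09) and *Il6ra* was 2-fold lower (log2 fold change -0.999, SE 0.14, adjusted p = 4.96e-07), both without overlap of the groups. *Il27* was 9.25-fold higher (log2 fold change 3.21, SE 0.69, adjusted p = 0.00036) and *Il15* 1.84-fold higher (0.88, SE 0.16, adjusted p = 4.95e-05), and *Ebi3* was 1.61-fold higher (0.68, SE 0.14, adjusted p = 0.000151) with 10 of 11 TNF libraries above every GM-CSF library. The call of *Ebi3* ended without title code 2B (0.55, adjusted p = 0.00196) and with scaling by total counts (0.51, adjusted p = 0.00281), both under the fold limit.

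*Il6* was only marginally separated between the cytokines. It was 1.53-fold higher with TNF (log2 fold change 0.62, SE 0.23, edgeR adjusted p = 0.0391), and 8 of 11 TNF libraries lay above all GM-CSF libraries. This call ended in 9 of 16 alternatives, where the log2 fold change was between 0.445 and 0.707, including codes 1A and 1B alone and codes 2A and 2B alone (0.50 and 0.71, adjusted p = 0.105 and 0.246). Scaling by total counts moved the median of all genes to -0.19, and relative to that median *Il6* stood at 0.64 and *Ebi3* at 0.71. *Osm* did not differ detectably (log2 fold change -0.28, SE 0.14, adjusted p = 0.143).

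Over the 29 slice samples the genes whose log2 CPM ran most like that of *Il6* were *Hspa8*, a heat shock protein gene (Pearson r = 0.953), and the chemokine genes *Ccl7* (0.934) and *Ccl2* (0.929). For *Il6ra* they were *Fgd2* (0.928), *Zfp36l2* (0.927) and *Slco2b1* (0.917), and for *Il27* *Adprh* (0.893), *Tor3a* (0.883) and *Ptafr* (0.881). *Il10ra* ran most like *Nectin4* (0.893), *Sema4d* (0.888) and *Tnfrsf1b* (0.872), and *Ebi3* most like *Rit1* (0.846), *Neurl3* (0.787) and *Bcl6* (0.783). For *Il15* the values were lower, with *Sqstm1* (0.784), *Tpd52* (0.776) and *Npc2* (0.771), as they were for *Osm*, with *Mogs* (0.764), *Il18rap* (0.758) and *Noc2l* (0.754). The samples share treatment, so these coefficients describe the grouping as well as the spread within it, and they carry no test.

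In adult microglia the effect of systemic LPS was compared with PBS. *Il12b* rose, *Il6*, *Il15* and *Il6ra* fell, and *Osm*, *Ebi3*, *Il27* and *Il10ra* did not pass both thresholds. Of the 8 genes that passed the filter 1 was called higher and 3 lower, where 14.4% of the 12987 genes tested were called higher and 13% lower. *Il12b* passed the filter through the LPS libraries.

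*Il12b*, which encodes p40, had 133, 49, 95 and 144 counts in the LPS libraries (9.7, 4.2, 7.29 and 10.6 CPM). In the PBS libraries it had 16, 6, 0 and 0 counts (1.15, 0.431, 0 and 0 CPM). Every LPS library lay above every PBS library. The log2 fold change was 4.27 (SE 0.74, 19.3-fold, edgeR adjusted p = 0.00127), and without single libraries it ran from 3.86 to 5.66. Its partner for IL-12, *Il12a*, had 2, 0, 1 and 1 counts with LPS and 0 counts in all PBS libraries, and its partner for IL-23, *Il23a*, had 1 count over the LPS libraries and 0 over the PBS libraries. In the same libraries the summed level of the 6 border macrophage markers was 10.1 to 15.6 CPM with PBS and 27.3 to 44.5 CPM with LPS (3 of 3 tested were called higher), and its part in the rise of *Il12b* was not tested. The transcript of p40 was counted almost without that of either partner chain.

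*Il6* fell in LPS microglia. It had 112, 195, 119 and 152 counts with PBS (8.04, 14.0, 9.58 and 11 CPM). With LPS it had 39, 12, 16 and 67 counts (2.84, 1.03, 1.23 and 4.93 CPM), all below the PBS libraries. Its log2 fold change was -2.07 (SE 0.42, 4.19-fold lower, edgeR adjusted p = 0.0025). The PBS libraries also held more of the neutrophil markers, whose summed level was 40.6 to 83.6 CPM against 1.61 to 8.31 CPM with LPS (5 of 7 markers were tested and all 5 were called lower, and *Ly6g* and *Retnlg* were at 0 in LPS libraries), and of the monocyte markers, at 11.1 to 15.4 CPM against 4.3 to 6.78 CPM. The part of either in the fall of *Il6* was not tested.

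*Il15* had 30, 25.4, 29.3 and 28 CPM with PBS and 16.1, 21.5, 18.7 and 16.6 CPM with LPS, without overlap. The log2 fold change was -0.63 (SE 0.11, 1.55-fold lower, edgeR adjusted p = 0.000545). Without LPS replicate 1 it was -0.58 and without LPS replicate 4 also -0.58, both under the fold limit (adjusted p = 0.00218 and 0.00206).

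Among the receptors, *Il6ra* had 335, 345, 316 and 345 CPM with PBS and 197, 210, 212 and 183 CPM with LPS. The groups did not overlap, and the log2 fold change was -0.74 (SE 0.07, 1.67-fold lower, edgeR adjusted p = 4.59e-06). *Il10ra* had 882, 1004, 1011 and 1032 CPM with PBS and 705, 739, 662 and 711 CPM with LPS, also without overlap, and at 1.39-fold lower it stayed under the fold limit (log2 fold change -0.48, SE 0.07, adjusted p = 0.000154). Of the microglial markers 5 of 10 were called lower with LPS. The 5 endothelial markers summed to 28.9 to 36.3 CPM with PBS and 10.2 to 13.7 CPM with LPS (1 of 1 tested lower), and the 5 astrocyte markers to 255 to 280 CPM and 145 to 182 CPM (1 of 2 tested lower). Each of these 2 sums was mostly 1 gene. *Pecam1* had a mean of 32.7 CPM with PBS and 10.9 CPM with LPS, with *Cldn5* at 0 in both groups. *Slc1a3* had 271 and 162 CPM. The part of these lists in the falls of *Il15*, *Il6ra* and *Il10ra* was not tested.

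The remaining ligand genes overlapped between the groups. *Ebi3* had 38.7, 25.5, 28.0 and 37.6 CPM with LPS and 37.4, 40.8, 41.6 and 41.5 CPM with PBS (log2 fold change -0.31, SE 0.13, adjusted p = 0.0611). *Osm* had 26.0, 15.8, 18.9 and 21.6 CPM against 19.5, 20.3, 17.2 and 17.4 CPM (log2 fold change 0.15, SE 0.14, adjusted p = 0.417). *Il27* had 36, 15, 22 and 45 counts against 39, 45, 29 and 35 (log2 fold change -0.28, SE 0.31, adjusted p = 0.466), while its overlapping neighbor *Apobr* was higher with LPS (log2 fold change 1.00, SE 0.15, adjusted p = 0.000195). No direction is read for these ligand genes.

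**Figure D3:**
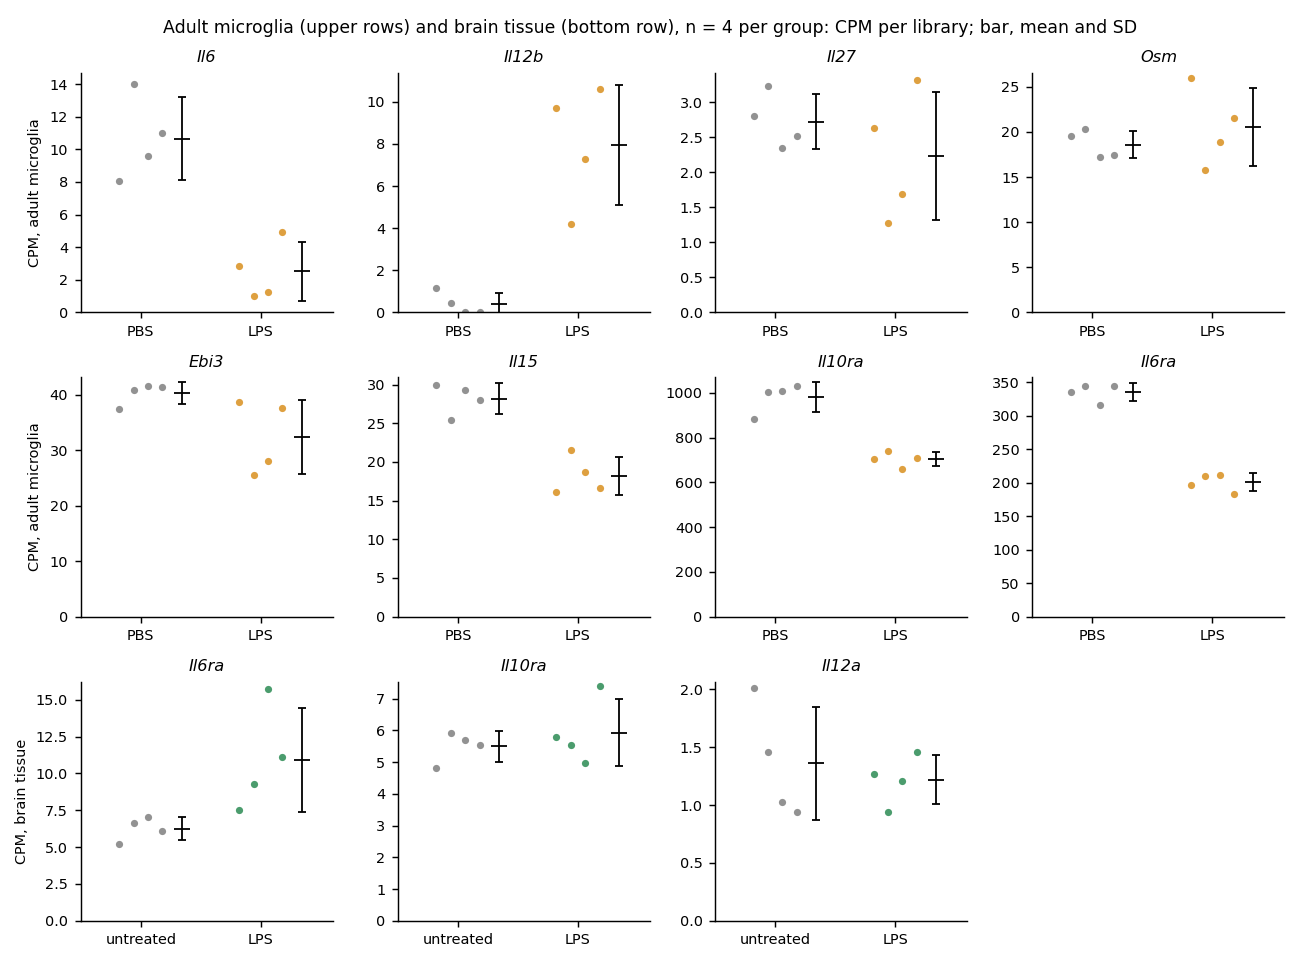
CPM of 8 of the genes in each adult microglia library and of the 3 tested genes in each brain tissue library (points), with mean and SD of the 4 libraries per group (bars). In adult microglia *Il12b* is higher and *Il6*, *Il15*, *Il10ra* and *Il6ra* are lower with LPS without overlap, and in brain tissue *Il6ra* is higher with LPS without overlap.

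In whole brain tissue LPS was compared with no treatment. *Il6ra* was higher, and it was the single gene called of the 3 that passed the filter, where 2.63% of the 15083 genes tested were called higher and 0.550% lower. In tissue of many cell types, fewer cells of a type and less RNA per cell cannot be told apart. *Il6ra* had 52, 68, 68 and 58 counts without treatment (5.23, 6.61, 7.04 and 6.06 CPM) and 71, 79, 130 and 99 counts with LPS (7.49, 9.31, 15.7 and 11.1 CPM). The groups did not overlap, and the log2 fold change was 0.80 (SE 0.20, 1.74-fold, edgeR adjusted p = 0.0237). The call ended without LPS replicate 3 (log2 fold change 0.575, under the fold limit, adjusted p = 0.0152), without LPS replicate 4 (0.79, adjusted p = 0.0711) and without untreated replicates 1, 2 or 4 (0.72, 0.83 and 0.79, adjusted p = 0.0844, 0.0617 and 0.0799). In the same libraries the 10 microglial markers summed to 316 to 363 CPM without treatment and 247 to 430 CPM with LPS (0 called higher, 3 lower), the 6 border macrophage markers to 5.43 to 7.86 and 9.31 to 13.2 CPM (2 of 4 tested higher, *Mrc1* at 0), and the 5 endothelial markers to 154 to 166 and 233 to 269 CPM (3 of 5 higher). The 6 neutrophil markers listed in the brain table summed to 0.503 to 1.55 CPM without treatment and 3.16 to 7.97 CPM with LPS (1 of 1 tested higher). The part of these lists in the rise of *Il6ra* was not tested.

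*Il10ra* and *Il12a* passed the filter in brain tissue without being called, and the remaining 7 genes stayed under it. *Il10ra* had 4.82, 5.93, 5.69 and 5.54 CPM without treatment and 5.8, 5.54, 4.96 and 7.41 CPM with LPS (log2 fold change 0.11, SE 0.16, adjusted p = 0.739). *Il12a* had 20, 15, 10 and 9 counts without treatment and 12, 8, 10 and 13 with LPS (log2 fold change -0.16, SE 0.31, adjusted p = 0.822), so that this gene, sporadic or absent in sorted microglia, was counted in all 8 brain libraries. *Il15* had 8 to 14 counts without treatment and 2 to 9 with LPS, and *Ebi3* 7 to 9 and 5 to 9. Fits without the filter gave them log2 fold changes of -0.68 (SE 0.44, adjusted p = 0.495) and -0.12 (SE 0.44, adjusted p = 0.935). *Osm* had 7 counts over the untreated libraries and 4 over the LPS libraries, *Il6* 2 and 0, *Il27* 1 and 0, and *Il12b* 0 and 0.

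The LPS effects in adult microglia and in brain tissue were compared by an interaction term over the 16 in vivo samples. Source of RNA, library kit, sequencing run and kind of control coincide in this comparison and cannot be told apart. *Il6ra* fell in microglia and was higher in tissue, and the difference of the log2 fold changes was -1.55 (SE 0.20, edgeR adjusted p = 6.65e-06), called in all 22 alternatives. *Il10ra* differed by -0.60 (SE 0.15, adjusted p = 0.00512), close to the fold limit, and its call ended in 7 of 22 alternatives. Of the 9 genes in this fit 1 was called higher and 2 lower in microglia, where 9.10% of the 16676 genes tested were higher and 10.6% lower. The gene called higher was *Il12a*, whose adult microglia libraries held 4 counts in all, and no fold is read from it. For *Il12b*, at 0 in all brain libraries, no difference of effects could be estimated.

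**Figure D4:**
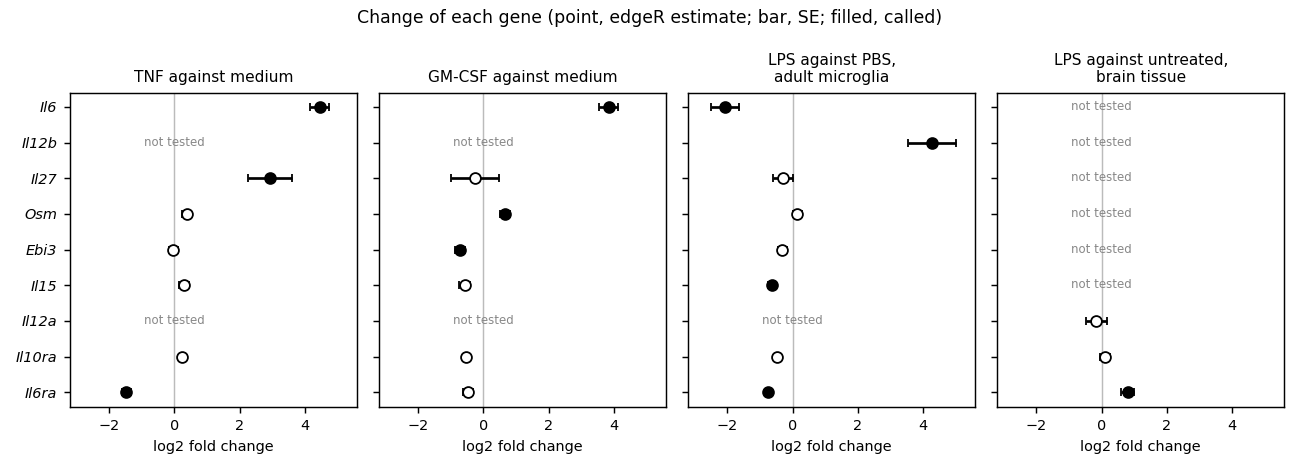
Log2 fold change of 9 of the genes in each of the 4 treatments (point, edgeR estimate; bar, SE; filled points were called, and genes under the filter on low counts are marked as not tested). The points of *Il6* are at 4.45 (TNF), 3.84 (GM-CSF) and -2.07 (LPS, adult microglia), and *Il6ra* lies below 0 in the sorted microglia and at 0.80 in brain tissue.

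*Il6* thus rose with TNF and with GM-CSF in slice microglia and fell with systemic LPS in adult microglia. The slice and adult samples differ in age, culture, route and agent, and no test across them was made.

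The other genes of these pathways were read from 6 lists with 49 genes: further ligands and receptors of the gp130 family, IL-12 and IL-23 partners, IL-10 family partners, genes of the common gamma chain family, and Janus kinases, STATs and SOCS inhibitors. With TNF 7 of 24 tested list genes were called higher and 2 lower, with a median log2 fold change of 0.10 where that of all genes was -0.03, and where 9.10% of all genes tested were called higher and 11.7% lower. With GM-CSF 0 were higher and 5 of 24 lower (median -0.19, all genes -0.04), beside 4.84% and 5.96% of all genes. Between TNF and GM-CSF 11 were higher and 1 lower with TNF (median 0.62, all genes -0.02), beside 8.25% and 7.96%. With LPS 8 of 25 were higher and 4 lower in adult microglia (median 0.14, all genes 0.01), beside 14.4% and 13% of all genes. In brain tissue 6 of 23 were higher and 0 lower (median 0.16, all genes 0.00), beside 2.63% and 0.550%. Some list genes passed the filter through 1 group alone, so these counts are a description.

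Of the gp130 ligands and receptors, *Lifr*, the receptor of leukemia inhibitory factor, fell with TNF from 25.7 ± 5.34 CPM (SD, n = 9) to 5.01 ± 2.23 CPM (n = 11) (log2 fold change -2.35, SE 0.22, edgeR adjusted p = 6.36e-11). In adult microglia *Lifr* rose with LPS from 127 ± 10.3 to 199 ± 29.1 CPM (0.65, SE 0.10, adjusted p = 0.000288). *Clcf1*, a ligand of the family, fell with TNF (-1.78, SE 0.60, adjusted p = 0.0163). That fall rests on 176 counts over the medium libraries and 55 over the TNF libraries, and the gene did not pass the filter through the TNF libraries. With LPS in adult microglia *Clcf1* fell from 49.3 ± 2.41 to 18.4 ± 4.7 CPM (-1.43, SE 0.15, adjusted p = 2.08e-05). *Il6st*, the shared chain, fell 1.52-fold with GM-CSF (adjusted p = 0.0111) and 1.51-fold with LPS in adult microglia (adjusted p = 0.0013), and had a log2 fold change of -0.53 with TNF, under the limit (adjusted p = 0.0128). *Osmr*, the receptor chain for oncostatin M, had at most 6 counts over any group of sorted microglia, and in brain tissue it rose with LPS from 3.79 ± 0.841 to 10.7 ± 3.11 CPM (1.48, SE 0.21, adjusted p = 0.000516). The microglia thus carried the transcript of oncostatin M but hardly any of *Osmr*. For *Il6st*, *Lifr* and *Clcf1* the LPS effects in adult microglia and in brain tissue differed by the interaction term (-0.725, 0.63 and -1.07, adjusted p = 0.000682, 0.00108 and 0.0127).

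Of the IL-12 and IL-23 receptors, *Il12rb1*, the chain that binds p40, rose with TNF from 0.767 ± 0.944 CPM to 12.1 ± 4.26 CPM (log2 fold change 3.91, SE 0.60, edgeR adjusted p = 1.76e-06). It passed the filter through the TNF libraries. *Il12rb2* fell with LPS in adult microglia, from 1.42 ± 0.352 to 0.433 ± 0.231 CPM (-1.715, SE 0.42, adjusted p = 0.0049), from 77 and 22 counts over the groups, and passed the filter through the PBS libraries. Of the IL-10 family partners, *Il10rb*, the second chain of the IL-10 receptor, fell 1.54-fold with GM-CSF (192 ± 24.0 to 125 ± 5.92 CPM, adjusted p = 4.35e-09), and *Il20rb*, a receptor chain for IL-20 and related cytokines, rose with TNF from 2.3 ± 1.56 to 13.2 ± 4.12 CPM (2.52, SE 0.41, adjusted p = 4.65e-06).

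*Il15ra*, which presents IL-15, rose with TNF (17.4 ± 4.04 to 42.9 ± 7.82 CPM, 2.47-fold, edgeR adjusted p = 2.89e-07) and with LPS in adult microglia (22.9 ± 1.98 to 103 ± 41.3 CPM, 4.51-fold, adjusted p = 0.000586). *Il2rg*, the common gamma chain, rose 3.8-fold with TNF, 6.59-fold with LPS in adult microglia and 4.05-fold with LPS in brain tissue (adjusted p = 8.05e-16, 0.000152 and 0.000133), and fell 1.54-fold with GM-CSF (adjusted p = 0.000147). In brain tissue *Il2rg* had 36 counts over the untreated libraries and 131 with LPS, and it passed the filter there through the LPS libraries. *Il4ra*, the IL-4 receptor chain, rose 4.62-fold in adult microglia and 3.15-fold in brain tissue with LPS (adjusted p = 4.34e-08 and 1.26e-06), and *Il7r*, the IL-7 receptor chain, fell 4.97-fold in adult microglia (adjusted p = 1.2e-06).

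Of the signalling genes, *Socs3*, an inhibitor induced by STAT3, rose 2.91-fold with TNF (64.4 ± 16.7 to 187 ± 33.1 CPM), 10.6-fold with LPS in adult microglia (36.2 ± 2.49 to 383 ± 33.7 CPM) and 3.17-fold with LPS in brain tissue (edgeR adjusted p = 2.53e-11, 6.42e-10 and 0.00024). *Socs3* rose more in adult microglia than in brain tissue (interaction 1.735, SE 0.25, adjusted p = 2.04e-05). With GM-CSF it had 78.7 ± 17.5 CPM and was not called (log2 fold change 0.29, SE 0.14, adjusted p = 0.142). The study, by contrast, names *Socs3* first among the most significant genes raised by GM-CSF. Its fold there is far larger than the 1.22-fold found here, and the reason for this difference was not tested. *Stat3* rose 1.7-fold and *Jak3* 1.88-fold with LPS in adult microglia (adjusted p = 3.2e-06 and 2.64e-06). *Jak3* also rose 1.78-fold with LPS in brain tissue and fell 1.51-fold with GM-CSF (adjusted p = 0.000289 and 6.57e-06), and *Socs1* rose 3.21-fold with TNF (adjusted p = 1.03e-05). With scaling by total counts all 5 list genes called with GM-CSF, among them *Il6st*, *Il10rb*, *Il2rg* and *Jak3*, kept their direction but lost the call. *Jak3* lost it with DESeq2 size factors as well.

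Between TNF and GM-CSF directly, the genes called higher with TNF included *Il12rb1* (log2 fold change 3.65), *Il2rg* (2.55), *Il20rb* (2.02), *Socs1* (1.725), *Il15ra* (1.35) and *Socs3* (1.25), with edgeR adjusted p from 1.23e-18 for *Il2rg* to 0.000104 for *Il20rb*. *Il21r* (0.75), *Il10rb* (0.65) and *Jak2* (0.64) were also called, and lost the call with scaling by total counts without a change of direction. *Lifr* was the gene called lower (-2.10, adjusted p = 1.04e-09). In the comparison of LPS effects 2 of 30 list genes were called higher in adult microglia and 4 lower (9.10% and 10.6% of all genes), among them *Il12rb2* (-1.56, adjusted p = 0.00343) and *Il7r* (-2.60, SE 0.81, adjusted p = 0.0185). In brain tissue *Il7r* had 11 counts over the untreated and 12 over the LPS libraries and stayed under the filter. No difference between the sources is read from it.

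**Figure D5:**
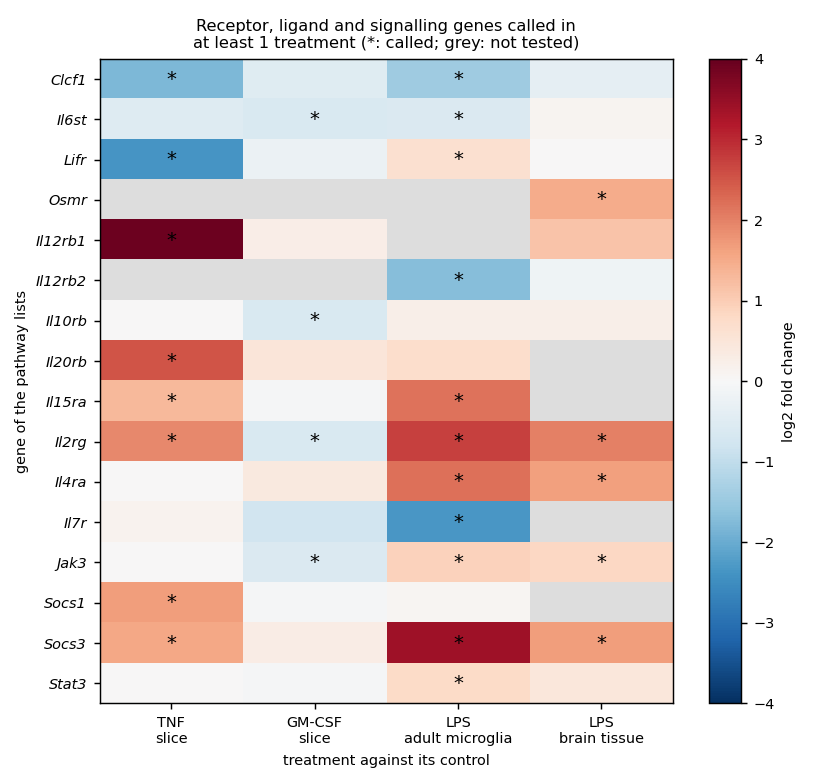
Log2 fold change (color) of list genes called in at least 1 treatment, by treatment against its control, with asterisks for calls and grey for genes not tested. *Il2rg* is higher with TNF and with LPS in both sources and lower with GM-CSF, and *Socs3* is called higher in each treatment other than GM-CSF.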

How the data were processed

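RNA sequencing libraries of 45 mouse samples were analysed from 3 tables. For slice microglia the table deposited by the authors holds raw read counts per gene, all whole numbers. For adult microglia and brain tissue the authors deposited expected counts (estimated counts per gene), which were rounded to whole numbers. Both kinds of microglia were amplified with SMART-Seq v4 and made into libraries with Nextera XT, and brain tissue with a TruSeq mRNA kit. The submitters' processing notes name mm10, and for slice samples STAR 2.7.0a, featureCounts and Subread 1.6.4. The aligner of the other tables is not given in the sources used here. In the brain table, 92 rows that name no gene held 0 counts and were left out.

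Each whole table was fitted with edgeR 4.0.16 (R 4.3.3) under TMM scaling and a low-count filter (minimum count 10, minimum total 15), tests were quasi-likelihood F tests, and adjusted p-values are Benjamini-Hochberg values over all genes tested. Slice samples were fitted together, the other tables alone. Calls needed an adjusted p under 0.05 and a fold over 1.5, the study's thresholds. SE is that of the log2 fold change. CPM were scaled with TMM factors, and exon lengths came from the GENCODE annotation of GRCm38. DESeq2 1.42.0 and limma 3.58.1 (voom) were alternatives, and scripts were tested on simulated data. All members were named in every comparison, of each pathway list at most the 4 called genes with the largest change, and of similar genes the 3 with the highest Pearson r over slice samples. The members and lists were chosen with earlier results of these data known. The values of 1 gene of the pathway lists, which is included in the counts, are not reported here.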

Additional observations from a re-analysis of the deposited data

Results flagged for a closer look

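In groups of 4 to 10 libraries, 49 combinations of gene and group were examined by Dixon's criterion for a library far from the others. For continuous values chance marks about 1 in 20 of such combinations. A group with counts in a single library is always marked, so this rate does not hold for genes near 0. In slice microglia, 1 medium library stood at 1.19 CPM (11 counts) for *Il12a* and another at 4.29 CPM (36 counts) for *Il12b*, with 0 in all other medium libraries. One GM-CSF library stood at 2.27 CPM (21 counts) for *Il12b*, where the next had 1.07 CPM. For *Ebi3* a GM-CSF library stood low, at 10.6 CPM (73 counts) against 21.5 CPM in the next. In untreated brain tissue 1 library stood at 0.104 CPM (1 count) for *Il27* and 1 at 0.402 CPM (4 counts) for *Osm*.

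The effect of LPS differed between adult microglia and brain tissue by the interaction term for 3 of the genes. The difference of log2 fold changes was -1.55 for *Il6ra* (edgeR adjusted p = 6.65e-06) and -0.60 for *Il10ra* (adjusted p = 0.00512). For *Il12a* the fitted difference was 3.16 (adjusted p = 0.0479), which rests on 4 counts in LPS microglia and 0 in PBS microglia, is no bound on a fold, and lost its call in 16 of 22 alternatives.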

How the results depend on the processing

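Of 702 refitted values of single genes under the alternatives, 628 kept their direction and side of the thresholds, 43 lost the call, 13 gained it and 18 changed sign, none of the last at a called value. Without the fold limit 5 members were called for TNF against medium and 6 for GM-CSF against medium (3 in each before). For GM-CSF against medium 1 member was called with codes 2A and 2B alone and 5 without title code 2B. Leaving out single libraries gave 0 to 1 members for LPS in brain tissue and 1 to 3 for the difference of LPS effects, which was 1 with no filter on low counts. The causes of these shifts were not tested.

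Signs changed for *Ebi3* with TNF (0.068 with codes 2A and 2B alone, 0.024 without title code 1A) and *Il27* with GM-CSF (0.25 without title code 1A). For the difference of LPS effects they changed for *Il6* (-0.85 with DESeq2, -1.68 with limma-voom), *Il27* (-0.13 with limma-voom) and *Il15* (-0.004 with DESeq2 size factors). Without single libraries these differences ran from -0.19 to 0.74 for *Il6*, -0.30 to 1.73 for *Il27*, -0.236 to 0.285 for *Il15* and -0.01 to 1.27 for *Osm*, and the LPS effect in brain tissue from -0.296 to 0.088 for *Il12a* and -0.014 to 0.186 for *Il10ra*.

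Equal replicate numbers were not taken as pairs. Correlations of same-numbered deviations were over 0.1 in 8 of 27 slice pairs, at most 0.184, and in 0 of 4 in adult microglia and 0 of 4 in brain tissue. Differently numbered samples were not correlated for reference, and same-numbered slice samples may share a title code, so pairing was not tested. With the replicate block 3, 4 and 6 members were called for TNF against medium, GM-CSF against medium and TNF against GM-CSF, 4 for LPS in adult microglia and 1 in brain tissue. The block added *Il15* with GM-CSF (-0.59, adjusted p = 0.00919) and ended no call of a member. At the depth of these libraries *Il10*, *Il12a* and *Il12b* stayed under the filter in slice microglia. So did *Il10* and *Il12a* in adult microglia and 7 members in brain tissue.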
